A study of Mus musculus with 63 samples.

Results

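Yy1 depletion was examined in undifferentiated mouse extended pluripotent stem (EPS) cells, by the RNA of cells labelled as carrying a short hairpin RNA against Yy1 (shYy1) and of cells with a control hairpin (shCtrl). The members were taken from the sample titles. They are 2 shYy1 and 2 shCtrl libraries, 4 of the 63 samples of the series and of its 22 RNA-seq count tables. The strain is C57BL/6 in all 4, the genotype labels read Ctrl shRNA and Yy1-depleted, and the cells were kept in serum-free LCDM medium with no differentiation step. They grew on mitomycin C-inactivated embryonic fibroblast feeders or on Matrigel, and the labels do not say which. The labels give neither the hairpin sequence nor how many hairpins or clones were used, nor the time since depletion. They do not say that the replicates are separate cultures, so the spread behind the p-values may be technical. That spread was estimated over all 14 undifferentiated RNA-seq libraries of the series, not over these 4 alone. The series asks how YY1 acts in EPS cells compared with embryonic stem (ES) cells grown in 2i. It also holds untransduced EPS and ES cells (3 libraries each) and ES cells with a Yy1 overexpression construct (oeYy1) or its control (oeCtrl, 2 libraries each), which are used here for reference levels.

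YY1 is a zinc finger transcription factor that binds a short motif near many gene starts and at enhancers. It recruits chromatin regulators, among them the INO80 remodelling complex, and can hold enhancers and promoters together by pairing with itself. Embryos without it die around implantation, and pluripotent cells express it at high levels. The signalling genes of the epiblast are given below beside those of pluripotency, DNA methylation and imprinting.

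Depth was 15874133 and 17005566 counts on genes in the shCtrl libraries and 13672061 and 16609537 in the shYy1 libraries. Levels are CPM, that is counts scaled so that libraries of different size can be compared, with the normalization factor of each library. They compare a gene between libraries, not 1 gene with another, since they are not divided by length. A change is the log2 fold change of shYy1 against shCtrl ± SE, and calls were made at 0.05 on p-values adjusted by Benjamini and Hochberg's method over the 16440 genes tested with edgeR's quasi-likelihood test. All adjusted p-values below come from it. The shCtrl libraries differed more from each other than the shYy1 libraries did. Among 10549 genes averaging 5 CPM or more, 261 differed over 2-fold between the shCtrl libraries and 9 between the shYy1 libraries.

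Yy1 fell to about 50% of its control level. It lies on chromosome 12 (start 108792945, end 108820148, GRCm38.p6) and stood at 126 and 135 CPM in the shCtrl libraries and 65.7 and 65.6 CPM in the shYy1 libraries, or 131 ± 6.04 against 65.7 ± 0.0585 CPM (SD, n = 2 each). The groups did not overlap (log2 -0.99 ± 0.11, adjusted p = 4.43e-06). Untransduced EPS cells held 116 to 129.9 CPM, close to the control. Of its relatives that arose as retrocopies, Zfp42 (REX1), a marker of naive pluripotent cells, fell from 420.0 and 392 to 274 and 243 CPM (log2 -0.65 ± 0.14, adjusted p = 0.00183). Yy2 had 0 counts in each of the 4 libraries.

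Sex-linked genes differed between the groups and are given first, because they touch what follows. Of 607 X-linked genes tested 366 were called (60.3%), 351 higher in shYy1 (57.8%) and 15 lower (2.47%), with a median log2 change of 0.83. This median lay between 0.49 and 1.09 in every 20 Mb stretch of the chromosome. The medians of the autosomes lay between -0.11 and 0.03. X-linked genes took 2.81 and 2.85% of gene counts in shCtrl, 4.75 and 4.83% in shYy1, 3.10 to 3.16% in untransduced EPS cells and 2.77 to 2.92% in ES cells. Genes of the Y were nearly silent in shCtrl and expressed in shYy1. Eif2s3y, a translation factor subunit, stood at 0.297 and 0.768 CPM against 48.6 and 42.1 CPM (log2 6.39 ± 0.29, adjusted p = 1.89e-10, and log2 7.21 without shCtrl replicate 2), and the helicase gene Ddx3y at 1.07 and 1.06 against 54.9 and 55.0 CPM (log2 5.68 ± 0.33, adjusted p = 5.93e-09). Uty, a histone demethylase relative, stood at 1.19 and 0.768 against 26.1 and 31.7 CPM, and Kdm5d, an H3K4 demethylase, at 0 in both shCtrl libraries against 0.613 and 0.448 CPM. Summed over 9 Y-linked genes the level was 3.09 and 3.01 CPM in shCtrl and 145 and 147 CPM in shYy1, beside 15.7 to 25.5 CPM in untransduced EPS cells and 66.0 to 79.6 CPM in ES cells. The shYy1 libraries therefore stand apart from the shCtrl libraries in their sex-linked RNA, and depletion and this difference cannot be told apart in this design. Counts over all genes are also given below without X- and Y-linked genes. Counts of gene lists include their X- and Y-linked members unless stated.

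**Figure D1:**
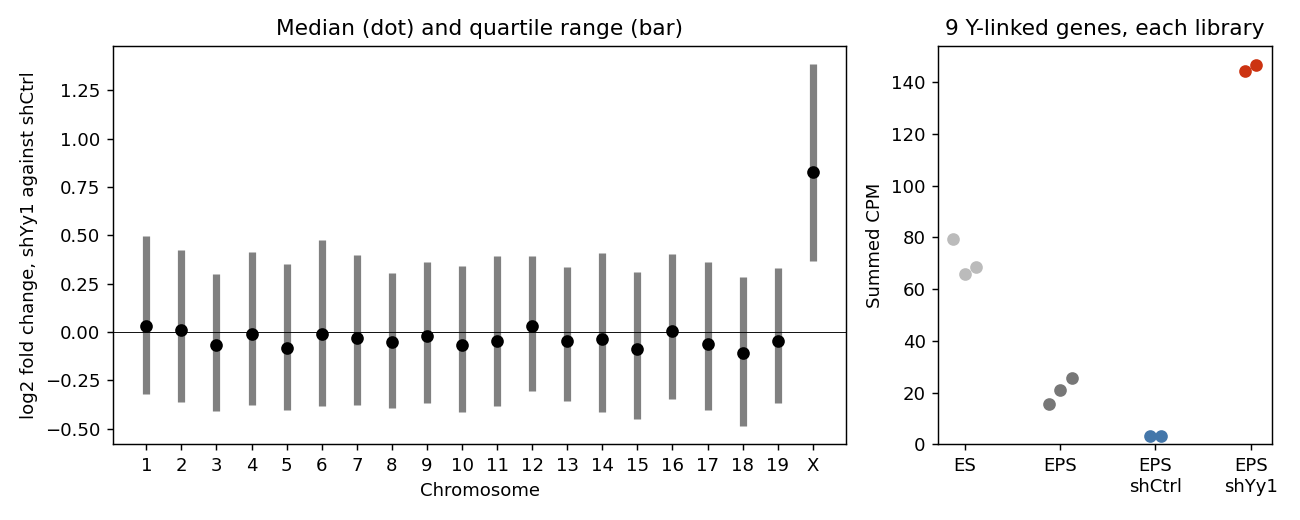
Left, the median (dot) and the range between the quartiles (bar) of the log2 fold changes of shYy1 against shCtrl for the genes tested on each autosome and on the X. Right, the summed CPM of 9 Y-linked genes, 1 dot per library. The X median is 0.83 while autosome medians lie between -0.11 and 0.03, and the Y-linked sum is 145 and 147 CPM in shYy1 against 3.09 and 3.01 CPM in shCtrl.

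Xist, the RNA that coats an inactive X, was not called, at 24.4 and 4.61 CPM in shCtrl and 10.8 and 9.75 CPM in shYy1 (log2 -0.50 ± 0.97, adjusted p = 0.741), and its groups overlapped. None of the 5 tested genes of the X inactivation centre was called, and whether counting used the strand is not stated, so Xist and its antisense partner Tsix cannot be told apart. Kdm5c, an X-linked H3K4 demethylase, rose from 212 and 203 to 372 and 338 CPM (log2 0.77 ± 0.12, adjusted p = 0.000142), and Hdac6, a cytoplasmic deacetylase, from 109 and 90.0 to 228 and 226 CPM (log2 1.19 ± 0.12, adjusted p = 1.76e-06). Both lie within the middle range of the X-linked genes called higher (log2 0.81 to 1.78) or just under it.

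Over all genes 4682 of 16440 were called (28.5%), 2490 higher (15.1%) and 2192 lower (13.3%). At least 2-fold, 1282 were higher (7.8%) and 646 lower (3.93%). Without X- and Y-linked genes, 4310 of 15826 were called (27.2%), 2133 higher (13.5%) and 2177 lower (13.8%). These 15826 include 871 genes that the annotation did not place on a chromosome. A share called in a gene list below that lies near these 15.1% and 13.3% is no result about the list, and no list was tested as a whole. The lists were chosen with earlier results of these data known, so a share far from these percentages is a description only. The median log2 change over all genes was -0.01. The number of calls depended on single libraries. Without shCtrl replicate 2 it was 2571, without shYy1 replicate 1 it was 2618 and without shYy1 replicate 2 it was 2703. Of the genes not on X or Y, 860 higher and 707 lower ones kept their call whichever of the 4 libraries was left out. Genes named below as changed kept theirs too, except where a value without 1 library is given. Groups that do not overlap were common, at 66% of all genes tested, so that alone is not read as a difference.

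Against the 3 untransduced EPS libraries in place of shCtrl, the direction often held but not always. Of the 2133 genes called higher, 63.2% were also called higher against untransduced EPS cells and 11.96% were called lower. Of the 2177 called lower, 53.4% were called lower and 13.0% higher. Of all 15826 such genes 31.1% were called higher and 30.2% lower against untransduced EPS cells. Both comparisons use the shYy1 libraries, so the overlap is not read as a result. Genes below that turned direction or were not called against untransduced EPS cells are marked so or listed with the alternatives at the end.

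The largest falls and rises outside the sex chromosomes were steep. Enox1, an electron transport protein of the cell surface, fell from 58.8 and 95.9 to 3.89 and 4.43 CPM (log2 -4.21 ± 0.25, adjusted p = 5.54e-09), and Soga3 from 29.5 and 19.09 to 1.16 and 1.79 CPM (log2 -4.02 ± 0.29, adjusted p = 5.08e-08). Nt5e, the ectoenzyme CD73 that makes adenosine, fell from 22.5 and 25.8 to 1.77 and 2.63 CPM (log2 -3.44 ± 0.28, adjusted p = 2.18e-07). Col6a5 (a collagen VI chain), Nlrc4 (an inflammasome sensor) and Mcc (a gene named for its mutation in colorectal cancer) fell by 3.59, 3.17 and 3.14 on the log2 scale. Col6a5 stood at -2.89 without shCtrl replicate 2. The guidance receptor gene Robo4 fell by 3.56, from 17.3 and 13.0 to 1.02 and 1.51 CPM. In untransduced EPS cells Robo4 stood at 0 to 0.177 CPM and Col6a5 at 0.119 to 0.354 CPM, under their shYy1 levels. Nlrc4 and Mcc were not called against these cells (log2 -0.66 and -0.63). Most of the largest rises began under 1 CPM. Dnajc5g, a chaperone relative first described in testis, rose from 0.238 and 0.0591 to 20.3 and 20.5 CPM and Msln, the surface protein mesothelin, from 0.297 and 0 to 16.0 and 22.2 CPM. Pkd2l1, a cation channel, rose from 0.356 and 0 to 17.7 and 18.8 CPM and the neurofilament gene Nefm from 0.297 and 0.827 to 18.1 and 30.4 CPM. Ube2l6, the conjugating enzyme for the ubiquitin-like ISG15, rose from 0.654 and 0.591 to 21.5 and 19.05 CPM (log2 5.01 ± 0.32, adjusted p = 1.29e-08), and Smc1b, the meiotic cohesin subunit, from 5.05 and 0.591 to 52.1 and 47.9 CPM (log2 4.15 ± 0.56, adjusted p = 0.000139). The log2 change of Smc1b was 6.38 without shCtrl replicate 1 and 3.30 without shCtrl replicate 2. Smtnl1 rose by 3.97 (log2 4.74 without shCtrl replicate 1) and Ptprtos by 5.33, and the name of the second marks it as an opposite-strand transcript, whose reads cannot be told from those of its partner here.

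The promoters were searched for the core of the YY1 motif, CCATNTT, on both strands (AANATGG on the other) in windows of 250 bases before to 50 bases after each RefSeq gene start. Of windows of genes tested and not on X or Y 14.2% held it (2037 of 14344). The share was 17.5% for genes called lower (371 of 2116 windows) and 11.6% for genes called higher (248 of 2140). Among genes at least 2-fold lower it was 14.7%. No test was made, and a match is a description of the letters, not a site. C and G made up 60.6% of all windows, 60.96% of those of genes called lower and 60.8% of those of genes called higher. Of the 55 named genes at least 2-fold lower, 42 had a window and 4 held the motif in the 250 bases before the start. The shares above count windows, not genes, and reach 50 bases past the start, so this count is not read against them. These 4 are printed to show where the letters fall (5′ to 3′ on the gene's strand, GRCm38.p6, RefSeq), with the motif in capitals.
Etv1, ETS transcription factor, chr12:38779832-38780081, plus strand: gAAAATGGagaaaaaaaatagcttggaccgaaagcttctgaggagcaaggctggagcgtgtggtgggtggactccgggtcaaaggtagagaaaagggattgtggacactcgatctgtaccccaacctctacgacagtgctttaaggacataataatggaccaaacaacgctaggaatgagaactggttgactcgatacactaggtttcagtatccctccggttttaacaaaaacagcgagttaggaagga
Grb10, imprinted growth inhibitor, chr11:12027972-12028221, minus strand: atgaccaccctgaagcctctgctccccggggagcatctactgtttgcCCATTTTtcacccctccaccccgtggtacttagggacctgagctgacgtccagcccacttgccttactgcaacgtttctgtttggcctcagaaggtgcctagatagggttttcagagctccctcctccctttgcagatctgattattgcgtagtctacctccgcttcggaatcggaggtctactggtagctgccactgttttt
Nlrc4, inflammasome sensor, chr17:74459109-74459358, minus strand: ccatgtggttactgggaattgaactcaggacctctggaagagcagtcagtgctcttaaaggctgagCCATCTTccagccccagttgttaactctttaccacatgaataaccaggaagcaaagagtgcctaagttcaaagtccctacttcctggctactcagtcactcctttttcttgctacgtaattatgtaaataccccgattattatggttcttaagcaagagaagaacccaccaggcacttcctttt
Sox11, neural and epiblast factor, chr12:27342719-27342968, minus strand: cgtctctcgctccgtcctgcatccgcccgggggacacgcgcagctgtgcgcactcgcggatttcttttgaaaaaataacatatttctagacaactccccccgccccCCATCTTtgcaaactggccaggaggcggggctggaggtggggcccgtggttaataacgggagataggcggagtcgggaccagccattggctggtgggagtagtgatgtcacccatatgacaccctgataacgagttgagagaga
The motif ended 242, 196, 177 and 137 bases before the start in Etv1, Grb10, Nlrc4 and Sox11, so its distance to the start differed among the 4. Etv1 and Grb10 each have a second window without it in these 250 bases.

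Genes that ERK signalling switches on as its own brakes were called lower more often than higher. Of 16 tested members 3 were called higher (18.8%) and 7 lower (43.8%), with a median log2 change of -0.39, and 2 of the higher and all 7 of the lower ones kept their call without any 1 library, beside 15.1% higher and 13.3% lower over all genes. Spry2 and Spry4 encode Sprouty proteins, which block growth factor receptors from reaching RAS. Spry2 stood at 126 and 146 CPM in shCtrl and 42.8 and 37.8 CPM in shYy1 (log2 -1.75 ± 0.15, adjusted p = 2.74e-07). Spry4 stood at 91.6 and 94.6 against 15.3 and 14.1 CPM (log2 -2.67 ± 0.24, adjusted p = 6.97e-07). The shYy1 libraries were the lower pair for both genes, and untransduced EPS cells (112 to 153 CPM for Spry2, 63.4 to 118 CPM for Spry4) were near the control. Dusp6, the cytoplasmic phosphatase that switches ERK off, fell from 68.1 and 53.7 to 19.4 and 16.4 CPM (log2 -1.77 ± 0.17, adjusted p = 1.24e-06). Spred1, a Sprouty relative that carries neurofibromin to RAS, fell from 101 and 117 to 39.1 and 43.4 CPM (log2 -1.39 ± 0.13, adjusted p = 9.02e-07), and its paralogs Spred2 and Spred3 and the FGF antagonist Il17rd fell by 0.98, 1.59 and 0.96. Against untransduced EPS cells the log2 change of Spred2 was positive but not called (0.31, adjusted p = 0.103). The 3 higher members were Dusp1, Dusp8 and the X-linked Dusp9. Dusp9 rose from 211 and 139 to 546 and 483 CPM (log2 1.56 ± 0.17, adjusted p = 4.05e-06), while untransduced EPS cells held 13.7 to 18.3 CPM. Dusp1, an immediate early nuclear phosphatase, rose by 0.76 from 46.5 and 37.5 to 74.3 and 67.4 CPM, both under the 141 to 199.9 CPM of untransduced cells. Dusp8 stood under 1 CPM in all 4 libraries, at 0.238 and 0.0591 against 0.613 and 0.785 CPM, and lost its call without shCtrl replicate 2 (adjusted p = 0.163) or shYy1 replicate 2 (0.095). Its level in untransduced EPS cells was 7.90 to 9.54 CPM.

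The transcription factors downstream of ERK moved both ways. Of 19 tested members 3 were called higher (15.8%) and 7 lower (36.8%), with a median log2 change of -0.24. Myc, the growth-promoting factor, fell from 55.1 and 72.7 to 7.02 and 9.19 CPM (log2 -2.97 ± 0.22, adjusted p = 6.29e-08). It stood at 9.97 to 13.1 CPM in untransduced EPS cells, so the shCtrl level was the high one of the 3 groups. Etv1, Etv4 and Etv5 are ETS factors and standard readouts of FGF signalling. Etv1 fell from 32.4 and 32.4 to 8.72 and 7.45 CPM (log2 -2.00 ± 0.16, adjusted p = 1.54e-07), Etv4 from 299.8 and 302 to 111 and 112 CPM (log2 -1.43 ± 0.16, adjusted p = 5.52e-06) and Etv5 from 571 and 655 to 315 and 333 CPM (log2 -0.92 ± 0.10, adjusted p = 7.41e-06). Etv4 in shYy1 still lay above the 37.2 to 50.5 CPM of untransduced EPS cells. Etv1 stood at 9.10 to 10.4 CPM there and was not called against them (log2 -0.29, adjusted p = 0.0976). The AP-1 gene Jun rose by 1.29, from 9.74 and 7.45 to 18.9 and 23.1 CPM. Egr1 rose by 0.83 over all 4 libraries, from 27.4 and 27.4 to 38.0 and 59.1 CPM, and was not called without shYy1 replicate 2 (adjusted p = 0.347), shCtrl replicate 1 (0.124) or shCtrl replicate 2 (0.169). Against untransduced EPS cells, at 47.4 to 51.2 CPM of Jun and 78.6 to 167 CPM of Egr1, both were lower (log2 -1.22 and -1.49).

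Upstream in the same pathway, the ligand gene Fgf4, made by naive cells themselves, rose from 161 and 125 to 318 and 331 CPM (log2 1.18 ± 0.12, adjusted p = 2.20e-06), above the 235 to 247 CPM of untransduced EPS cells. Of 14 tested members 3 were called higher (21.4%) and 0 lower (0%), with a median log2 change of 0.18, the others being Fgf3, from 1.54 and 0.827 to 7.43 and 5.16 CPM, and the X-linked intracellular Fgf13, from 2.97 and 3.72 to 14.7 and 12.8 CPM. No receptor gene was called, and Fgfr1 stood at 84.1 and 84.0 against 107 and 89.3 CPM (log2 0.22). Of 6 X-linked genes that act on ERK signalling 5 rose, against 57.8% of all X-linked genes. Klhl13, a substrate adaptor of a CUL3 ubiquitin ligase, rose from 23.2 and 19.9 to 461 and 496 CPM (log2 4.47 ± 0.16, adjusted p = 2.29e-11), far above the middle range of X-linked rises. Untransduced EPS cells held 33.0 to 44.2 CPM of it. Elk1, an ETS factor that ERK phosphorylates, rose from 32.6 and 32.6 to 71.5 and 67.1 CPM and Rps6ka3, the kinase RSK2, from 54.5 and 48.5 to 98.4 and 108 CPM (log2 1.09 and 1.00). The kinase gene Araf rose by 0.50, under the X median, and Rps6ka6 was not called (log2 0.45).

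**Figure D2:**
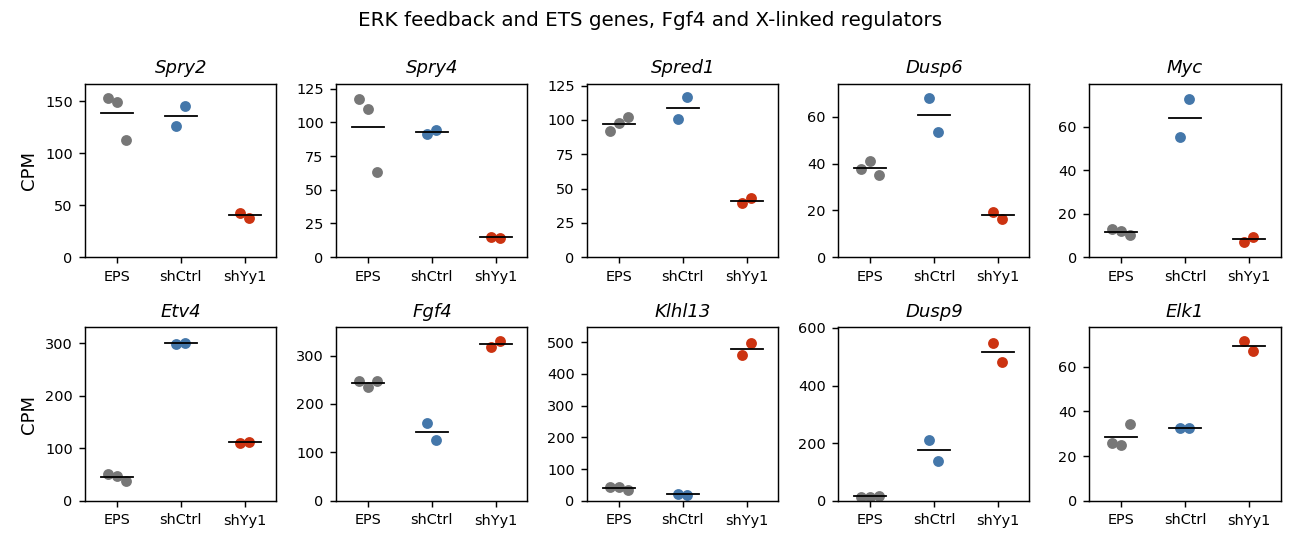
CPM of 10 genes in untransduced EPS (3 libraries), shCtrl and shYy1 (2 libraries each) cells, 1 dot per library, with the group mean as a line and each axis starting at 0. Spry2, Spry4, Spred1, Dusp6, Myc and Etv4 are lower in shYy1 than in shCtrl, while Fgf4, Klhl13, Dusp9 and Elk1 are higher. Etv4, Myc and Dusp9 also differ between the untransduced and shCtrl cells.

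In the BMP list, of 20 tested members 3 were called higher (15%) and 4 lower (20%), with a median log2 change of -0.12. These shares are near the 15.1% and 13.3% over all genes, and 3 in each direction kept their call without any 1 library. Bmp4, a ligand made by the epiblast and its neighbours, fell from 48.4 and 48.0 to 4.57 and 6.33 CPM (log2 -3.13 ± 0.26, adjusted p = 2.18e-07). It stood at 14.7 to 26.6 CPM in untransduced EPS cells, between the 2 groups. Id1 and Id3, classical targets of BMP signalling that hold back differentiation factors, fell with it. Id3 stood at 21.98 and 29.4 against 4.91 and 2.63 CPM (log2 -2.79 ± 0.37, adjusted p = 6.73e-05) and Id1 at 9.57 and 8.57 against 2.66 and 2.02 CPM (log2 -1.96 ± 0.35, adjusted p = 0.000526). Their relative Id2 went the other way, from 1.43 and 1.36 to 6.54 and 9.81 CPM (log2 2.56 ± 0.28, adjusted p = 5.23e-06), and stood at 39.4 to 50.6 CPM in untransduced EPS cells, so it would be lower, not higher, against them. The ligand gene Bmp7 rose by 1.12 and Smad9, a BMP-regulated mediator, by 1.61. The receptors Bmpr1a and Bmpr2 and the mediators Smad1 and Smad5 were not called (log2 -0.16, 0.19, -0.24 and -0.33).

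In the Nodal and activin list the inhibitor genes moved apart. Of 17 tested members 3 were called higher (17.6%) and 4 lower (23.5%), with a median log2 change of -0.06. Lefty2, a Nodal antagonist and target, rose from 26.1 and 43.2 to 158 and 171 CPM (log2 2.25 ± 0.39, adjusted p = 0.00157), close to the 114 to 188 CPM of untransduced EPS cells. Fst, encoding follistatin, which traps activin, fell from 7.37 and 9.45 to 1.57 and 2.63 CPM (log2 -1.98 ± 0.28, adjusted p = 5.73e-05). Smad3, a mediator, rose by 1.03. Among Wnt targets 4 of 21 were called lower and 1 higher, with a median log2 of -0.47. The feedback gene Axin2 fell from 36.8 and 56.8 to 20.7 and 24.7 CPM (log2 -1.04 ± 0.21, adjusted p = 0.00141), and it was the only member to keep its call without any 1 library. Lef1, a Wnt-responsive factor, stood at 3.45 and 48.9 CPM in shCtrl and 2.59 and 4.09 CPM in shYy1, so that its call rests on shCtrl replicate 2 (adjusted p = 0.976 without it, 0.223 without shYy1 replicate 1 and 0.157 without shYy1 replicate 2). Cdx1, a caudal factor, fell by 1.12 (adjusted p = 0.108 without shCtrl replicate 2 and 0.0697 without shYy1 replicate 1). It stood at 91.7 and 158 and 50.9 and 64.2 CPM in the 2 groups but at 1.13 to 1.42 CPM in untransduced EPS cells.

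Among retinoic acid genes 1 of 17 was called higher and 2 lower. The receptor gene Rarg fell from 274 and 321 to 103 and 74.4 CPM (log2 -1.75 ± 0.18, adjusted p = 2.29e-06), both above the 30.7 to 38.6 CPM of untransduced EPS cells. Of 15 LIF and STAT3 genes 5 rose and 4 fell. Pim1, a kinase gene that STAT3 switches on, rose from 76.4 and 91.4 to 231 and 250.2 CPM (log2 1.52 ± 0.18, adjusted p = 1.65e-05), and Socs2, a feedback inhibitor, fell from 87.3 and 139.7 to 64.3 and 44.1 CPM (log2 -1.07 ± 0.18, adjusted p = 0.000344). Tfcp2l1, a LIF-responsive naive factor, rose by 0.70 and was not called against untransduced EPS cells (log2 0.19). Of 18 Notch genes 3 were called each way, with Notch3, a receptor gene, higher by 0.85 and the ligand gene Jag2 lower by 0.75 (log2 0.01 against untransduced EPS cells).

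The cells of both groups expressed the defining genes of pluripotency. Of 14 tested members 3 were called higher (21.4%) and 9 lower (64.3%), with a median log2 change of -0.70, and 8 of the lower ones kept their call without any 1 library. Pou5f1 (OCT4) was not called, at 264 and 262 against 218 and 205 CPM (log2 -0.31 ± 0.15, adjusted p = 0.134). Against untransduced EPS cells Pou5f1 was called lower (log2 -1.05, adjusted p = 8.48e-06). Sox2 stood at 371 and 333 against 424 and 453 CPM (log2 0.32 ± 0.11, adjusted p = 0.0431), a call lost without shCtrl replicate 2 (adjusted p = 0.251), shYy1 replicate 1 (0.104) or shYy1 replicate 2 (0.228). Utf1, a chromatin factor of undifferentiated cells, fell from 449 and 453 to 136 and 155 CPM (log2 -1.63 ± 0.21, adjusted p = 4.45e-05). L1td1, an RNA-binding protein gene, fell from 647 and 744 to 292 and 340.2 CPM, and Dppa4, Dppa2, Zfp281, Zscan10 and Sall4 fell by 0.88, 0.76, 0.87, 0.83 and 0.63. Dppa5a, a marker of undifferentiated cells, rose by 1.17. Utf1 stood at 126 to 186 CPM in untransduced EPS cells, and against them Utf1, Zfp281, Sall4 and Sox2 were not called (log2 -0.16, -0.23, -0.14 and 0.07). Dppa2 was higher and Dppa5a lower against them (log2 1.60 and -0.66).

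Naive factors were split. Of 18 tested members 5 were called higher (27.8%) and 6 lower (33.3%), with a median log2 change of -0.12. Nanog rose from 547 and 520.0 to 1052 and 1143 CPM (log2 1.04 ± 0.13, adjusted p = 1.33e-05), above the 508 to 654 CPM of untransduced EPS cells. Prdm14, which keeps naive cells from differentiating, rose from 31.1 and 28.4 to 66.2 and 66.8 CPM and Tcl1, a cofactor of AKT, from 37.6 and 24.3 to 115 and 115 CPM (log2 1.16 and 1.89). Gbx2, a homeobox factor, fell from 37.0 and 57.3 to 10.6 and 13.1 CPM (log2 -1.99 ± 0.27, adjusted p = 4.76e-05) and Klf5 from 286 and 216 to 157 and 141 CPM (log2 -0.75). Gbx2 stood at 6.41 to 11.6 CPM in untransduced EPS cells, and against them Gbx2 and Klf5 had positive log2 changes (0.54 and 0.82). Esrrb, Klf2 and Tbx3 were not called (log2 -0.03, -0.25 and 0.41).

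Both LIN28 genes, whose proteins block maturation of let-7 miRNAs, were lower. Lin28a fell from 223 and 431 to 70.4 and 69.4 CPM (log2 -2.22 ± 0.22, adjusted p = 3.32e-06), under the 499.9 to 561 CPM of untransduced EPS cells. Lin28b fell from 44.7 and 63.5 to 17.5 and 17.6 CPM (log2 -1.62 ± 0.20, adjusted p = 1.65e-05). The shCtrl libraries differed from each other for Lin28a, and its log2 change was -1.67 without shCtrl replicate 2. In the LIN28 and let-7 list, of 15 tested members 2 were called higher (13.3%) and 5 lower (33.3%), with a median log2 change of -0.13. Drosha, the nuclear miRNA processing enzyme, fell by 0.58, and Dicer1 was not called (log2 -0.22). The let-7 targets Igf2bp2 and Hmga2 rose by 0.61 and 0.90, the second with an adjusted p of 0.0596 without shCtrl replicate 2. Against untransduced EPS cells Drosha was not called (log2 -0.15) and Hmga2 had a log2 change of -0.11. Igf2bp1 and Igf2bp3 were not called.

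All 3 tested genes of de novo DNA methylation fell. Dnmt3l, the cofactor without catalytic activity (chromosome 10, start 78042287, end 78063622), stood at 43.4 and 67.6 CPM in shCtrl and 9.82 and 6.95 CPM in shYy1 (log2 -2.73 ± 0.29, adjusted p = 1.00e-05), under the 41.8 to 51.0 CPM of untransduced EPS cells. Dnmt3a fell from 209 and 232 to 92.9 and 89.6 CPM (log2 -1.27 ± 0.15, adjusted p = 1.42e-05). Untransduced EPS cells held only 27.8 to 42.8 CPM, so shYy1 was higher than these (log2 1.39). Dnmt3b fell from 168 and 312 to 103 and 108 CPM (log2 -1.18 ± 0.26, adjusted p = 0.00366), which was not called without shCtrl replicate 2 (adjusted p = 0.0608). In the separate list of methylation maintenance and oxidation, of 16 tested members 3 were called higher (18.8%) and 4 lower (25%), with a median log2 change of -0.20. Zfp57, the zinc finger that protects imprints, fell from 773 and 613 to 362 and 409 CPM (log2 -0.85 ± 0.14, adjusted p = 0.000277), and Trim28, the corepressor it recruits, from 1879.6 and 2316 to 1345 and 1344 CPM (log2 -0.64 ± 0.14, adjusted p = 0.00264). Dppa3, a maternal factor that shields methylation in the zygote, rose from 2.91 and 16.7 to 44.2 and 44.6 CPM, with a log2 change of 1.40 without shCtrl replicate 1 and 3.93 without shCtrl replicate 2. Dnmt1 and Uhrf1, which maintain methylation, were not called (log2 0.07 and 0.24). Against untransduced EPS cells, at 312 to 386 CPM of Zfp57, neither Zfp57 (log2 0.12) nor Trim28 (-0.22) nor Dnmt3b (-0.53) was called, and Dppa3 had a log2 change of -0.66.

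Germline genes that promoter methylation keeps silent were split. Of 20 tested members 4 were called higher (20%) and 4 lower (20%), with a median log2 change of -0.47. Fkbp6, a piRNA pathway cochaperone gene, rose from 2.79 and 2.90 to 17.2 and 17.5 CPM (log2 2.60 ± 0.21, adjusted p = 2.18e-07) and Hormad1, a meiotic axis gene, from 25.9 and 16.9 to 68.7 and 77.5 CPM (log2 1.77 ± 0.27, adjusted p = 0.000195). Dazl, a germ cell RNA-binding protein gene, rose from 18.6 and 8.15 to 36.2 and 38.1 CPM. Mov10l1, a piRNA helicase gene, fell from 13.7 and 9.75 to 4.98 and 4.88 CPM (log2 -1.25), and it was the only lower member to keep its call without any 1 library. Its log2 change was 0.56 against untransduced EPS cells.

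In the imprinted cluster on distal chromosome 12, the noncoding RNAs expressed from the maternal copy were lower. Of 7 tested genes 4 fell and none rose, and all 4 kept their call without any 1 library. Rian (start 109603945, end 109661716) stood at 291 and 370.2 CPM in shCtrl and 87.7 and 107 CPM in shYy1 (log2 -1.77 ± 0.14, adjusted p = 1.10e-07). Meg3 (start 109540996, end 109571729) stood at 178 and 243 against 62.5 and 73.8 CPM (log2 -1.63 ± 0.15, adjusted p = 1.02e-06). Mirg fell from 13.1 and 21.2 to 3.75 and 4.99 CPM (log2 -1.96 ± 0.24, adjusted p = 1.81e-05). Untransduced EPS cells held 462 to 524 CPM of Rian and 292 to 363 CPM of Meg3, above both groups. Rtl1 fell from 2.61 and 2.90 to 0.136 and 0.448 CPM, but its annotated span overlaps Meg3 and Rian, and reads of opposite strands cannot be told apart. The paternally expressed Dlk1 and Dio3 were not called (log2 -0.40 and 0.66), both at under 6 CPM in these 4 libraries. In ES cells with the Yy1 construct the same RNAs moved the opposite way. Rian stood at 313 and 287 CPM in oeCtrl and 1103 and 1179 CPM in oeYy1 (log2 1.93, adjusted p = 4.38e-08), and Meg3 at 171 and 156 against 729 and 755 CPM (log2 2.18, adjusted p = 4.38e-08).

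Imprinted genes elsewhere went both ways. Of 22 tested members 7 were called higher (31.8%) and 6 lower (27.3%), with a median log2 change of 0.16, and 4 and 3 of these kept their call without any 1 library. Plagl1, a zinc finger regulator of other imprinted genes, rose from 27.1 and 37.0 to 139 and 194 CPM (log2 2.38 ± 0.18, adjusted p = 1.19e-07), and untransduced EPS cells held 31.6 to 43.6 CPM. Peg3, a paternally expressed zinc finger gene, rose from 32.2 and 45.6 to 157 and 121 CPM (log2 1.84 ± 0.26, adjusted p = 0.000139), the level of untransduced EPS cells (119 to 170.0 CPM). The amino acid transporter gene Slc38a4 rose from 37.8 and 64.5 to 164 and 158 CPM (log2 1.65) and Ndn by 1.39. Grb10, an adaptor that restrains insulin and growth factor receptors, fell from 460.1 and 354 to 136 and 156 CPM (log2 -1.48 ± 0.17, adjusted p = 1.13e-05). Against untransduced EPS cells neither Grb10 (log2 -0.20) nor Mest (-0.03) was called. Mest and Nnat fell by 1.66 and 1.74, the second with a log2 change of -1.10 without shCtrl replicate 2. Peg10 stood at 50.0 and 199 CPM in shCtrl and 36.4 and 50.2 CPM in shYy1, and was not called without shCtrl replicate 2 (adjusted p = 0.508), shYy1 replicate 1 (0.198) or shYy1 replicate 2 (0.0942).

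**Figure D3:**
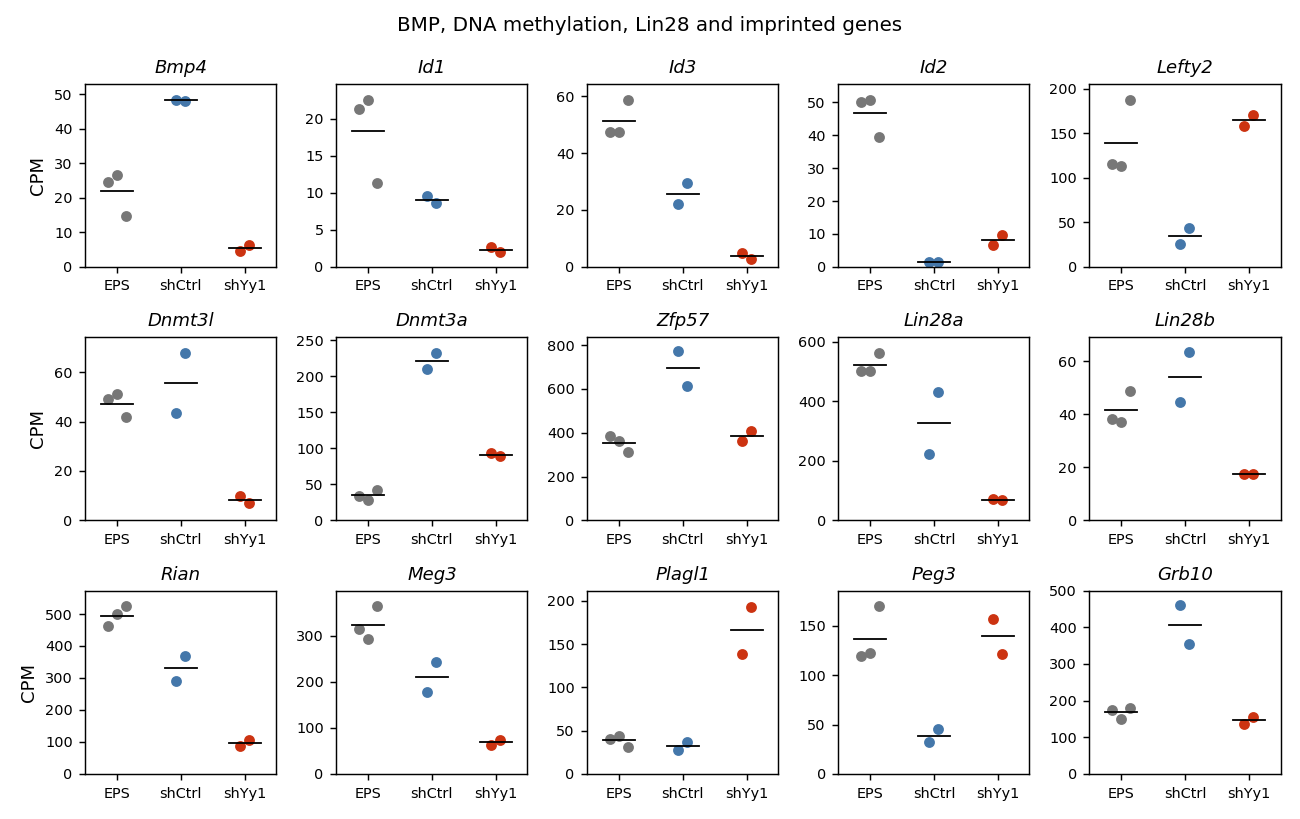
CPM of 15 genes in untransduced EPS (3 libraries), shCtrl and shYy1 (2 libraries each) cells, 1 dot per library, with the group mean as a line and each axis starting at 0. Bmp4, Id1, Id3, Dnmt3l, Dnmt3a, Zfp57, Lin28a, Lin28b, Rian, Meg3 and Grb10 are lower in shYy1 than in shCtrl, and Id2, Lefty2, Plagl1 and Peg3 are higher. For Dnmt3a and Id2 the shYy1 level lies between the other groups, so the direction against untransduced cells is the opposite, and the log2 change of Zfp57 also turns there (0.12, not called).

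Of the complexes that work with YY1, INO80 was lower in part. Of 14 tested members 0 were called higher (0%) and 4 lower (28.6%), with a median log2 change of -0.25. Ruvbl1 and Ruvbl2, the AAA+ ATPases shared with other remodellers, fell by 0.54 and 0.55, from 143 and 171 to 109 and 107 CPM and from 305 and 336 to 223 and 215 CPM. Actl6a and Ino80e fell by 0.34 and 0.42 over all 4 libraries, and neither was called without shCtrl replicate 2 (adjusted p = 0.217 and 0.214), shYy1 replicate 1 (0.0781 and 0.0788) or shYy1 replicate 2 (0.184 and 0.111). Of 13 cohesin and looping genes the X-linked Smc1a rose by 0.69 and Wapl, the release factor, fell by 0.42, a call lost when any 1 library was left out (adjusted p from 0.0692 without shCtrl replicate 1 to 0.112 without shYy1 replicate 2). Of 11 Polycomb repressive complex 2 genes 2 rose and 2 fell. Eed, a core subunit, fell from 194 and 194 to 113 and 112 CPM (log2 -0.79 ± 0.15, adjusted p = 0.000973), while Ezh1, the minor methyltransferase, rose from 34.2 and 30.6 to 56.3 and 48.7 CPM (log2 0.70 ± 0.14, adjusted p = 0.00137). Mtf2, which targets the complex to CpG islands, rose by 0.57. Among 18 H3K4 methylation genes 4 fell and 3 rose, Kdm5c among the latter. Of the 16 not on X or Y 4 fell and 1 rose. Setd1b, a H3K4 methyltransferase, fell from 84.7 and 101 to 45.0 and 35.7 CPM (log2 -1.20 ± 0.17, adjusted p = 6.40e-05), with 26.5 to 32.0 CPM in untransduced EPS cells, and its targeting subunit Cxxc1 fell by 0.64.

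Lineage genes differed in level. Over the 4 libraries the summed CPM was 105 to 139 for 12 primitive endoderm genes and 202 to 357 for 16 trophoblast genes. It was 182 to 292 for 18 neural genes and 20.8 to 42.0 for 12 mesendoderm genes. In the primitive endoderm list, of 11 tested members 1 was called higher (9.09%) and 6 lower (54.5%), with a median log2 change of -0.92. Gata6, which drives this lineage, fell from 24.2 and 13.4 to 5.18 and 3.70 CPM (log2 -2.08 ± 0.40, adjusted p = 0.00097), both above the 0.714 to 2.301 CPM of untransduced EPS cells. Of the other 5 lower members none kept its call without any 1 library, and the higher one was the X-linked Cited1 (log2 2.62). The visceral endoderm receptor gene Cubn fell from 6.18 and 10.9 to 1.23 and 1.40 CPM (log2 -2.69, and 2.48 against untransduced EPS cells). In the trophoblast list 5 of 14 were called higher and 1 lower. Ets2, a factor of trophoblast stem cells, rose from 32.3 and 25.2 to 86.4 and 93.6 CPM (log2 1.65 ± 0.18, adjusted p = 5.54e-06), and Eomes, a factor of trophoblast and primitive streak, fell from 23.2 and 21.4 to 8.11 and 4.60 CPM (log2 -1.82 ± 0.26, adjusted p = 7.62e-05). The other 4 higher members, Esx1, Gata2, Gata3 and Tfap2c, each lost the call without at least 1 library. Without shYy1 replicate 2 the adjusted p was 0.103 for Esx1 and 0.0719 for Tfap2c. Without shYy1 replicate 1 it was 0.134 for Gata2, 0.0721 for Gata3 and 0.151 for Tfap2c. Without shCtrl replicate 1 it was 0.0656 for Gata2 and 0.174 for Tfap2c, and without shCtrl replicate 2 it was 0.0601 for Gata3. Against untransduced EPS cells Eomes was not called (log2 -0.35), and Gata2 and Gata3 had log2 changes of -0.15 and -0.24.

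Gsc, a homeobox gene of the primitive streak and organizer, rose from 0.713 and 0.827 to 8.72 and 7.68 CPM (log2 3.40 ± 0.31, adjusted p = 8.41e-07), and Evx1, a streak gene, fell from 1.90 and 3.66 to 0.409 and 0.504 CPM (log2 -2.58 ± 0.48, adjusted p = 0.00069). Of 8 tested mesendoderm genes 1 was called higher and 2 lower. Among neural genes Crmp1, a neuronal cytoskeleton gene, fell from 52.5 and 142 to 15.7 and 10.8 CPM (log2 -2.88 ± 0.34, adjusted p = 3.90e-05, and log2 -2.00 without shCtrl replicate 2), and Nes, the intermediate filament nestin, rose by 1.22. Sox11, whose promoter is printed above, fell from 44.0 and 55.7 to 19.4 and 17.2 CPM (log2 -1.45 ± 0.20, adjusted p = 5.48e-05). Of 24 tested Hox genes 5 were higher and 2 lower. Hoxc13 rose from 4.22 and 1.95 to 18.7 and 14.8 CPM (log2 2.44 ± 0.28, adjusted p = 7.02e-06, and log2 3.09 without shCtrl replicate 1), Hoxd9 from 0.535 and 0.414 to 2.66 and 2.35 CPM, and Hoxa7 fell from 3.92 and 3.90 to 0.954 and 1.51 CPM. In a bulk sample fewer cells that express a gene and less RNA of it per cell cannot be told apart. Of 15 basement membrane genes 6 rose and 3 fell. Nid1, encoding nidogen, rose from 136 and 79.5 to 299.8 and 265 CPM (log2 1.39 ± 0.20, adjusted p = 9.29e-05), and Sparc, Col18a1 and Hspg2 rose by 1.03, 1.16 and 0.73. The laminin gene Lamb1 fell by 0.75. Against untransduced EPS cells Evx1, Sparc and Col18a1 were not called (log2 -0.91, 0.35 and 0.45), and Nes and Hoxa7 turned to -0.55 and 0.64.

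Fibroblast genes, which may come from feeders, were low in all 4 libraries. The sum over 20 of them was 63.0 and 37.6 CPM in shCtrl and 99.4 and 88.9 CPM in shYy1, beside 475 to 1301 CPM in untransduced EPS cells and 3140 to 5540 CPM in ES cells. Of the 20 genes 6 were called higher and none lower, and none of the 6 kept its call without any 1 library. Col1a1 stood at 0.713 and 0.532 CPM in shCtrl and 6.61 and 5.21 CPM in shYy1 (log2 3.22 ± 0.99, adjusted p = 0.0372, with an adjusted p between 0.0859 without shYy1 replicate 2 and 0.193 without shCtrl replicate 2 when any 1 library was left out). Between 3 and 5 of the 20 were at 0 in the shCtrl libraries and 1 or 2 in the shYy1 libraries. Genes shared by fibroblasts and other cells rose too, such as Cyr61, a YAP target, from 12.5 and 10.6 to 47.6 and 54.2 CPM beside 104 to 223 CPM in untransduced EPS cells, and the part of feeders in this was not tested.

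Enzymes of metabolism changed gene by gene. In the glycolysis list, of 25 tested members 6 were called higher (24%) and 6 lower (24%), with a median log2 change of -0.28. Over all genes the shares were 15.1% and 13.3%. Of the 23 members not on X or Y 4 were called higher and 6 lower. Pdk1, the kinase that shuts pyruvate out of the citric acid cycle, fell from 228 and 367 to 70.5 and 80.9 CPM (log2 -1.97 ± 0.17, adjusted p = 5.50e-07), while its X-linked relative Pdk3 rose by 1.09. Ldhb, a lactate dehydrogenase subunit, rose from 68.1 and 82.8 to 187 and 188 CPM (log2 1.31 ± 0.16, adjusted p = 1.25e-05), with 627 to 859 CPM in untransduced EPS cells. The neuronal-type glucose transporter gene Slc2a3 rose by 0.77, and the regulator Pfkfb3 by 1.06 (log2 -0.09 and -0.29 against untransduced EPS cells). Mat2a, which makes S-adenosylmethionine, the methyl donor of DNA and histone methylation, fell from 425 and 516 to 181 and 245 CPM (log2 -1.14 ± 0.15, adjusted p = 3.14e-05). In the serine, threonine and one-carbon list as a whole 2 of 20 rose and 5 fell. Of 23 cholesterol synthesis genes 5 fell and 3 rose, among them Idi1 (log2 -0.75, and 0.30 against untransduced EPS cells) and the X-linked Ebp (log2 0.73). Of the 21 not on X or Y 5 fell and 1 rose.

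In the list of p53 targets, of 21 tested members 11 were called higher (52.4%) and 1 lower (4.76%), with a median log2 change of 0.51. This stands beside 15.1% higher and 13.3% lower over all genes, and 6 of the higher members kept their call without any 1 library. Cdkn1a, the CDK inhibitor p21, rose from 76.0 and 103 to 194 and 237 CPM (log2 1.27 ± 0.15, adjusted p = 8.57e-06). Pmaip1 (NOXA) rose from 25.1 and 29.9 to 49.0 and 71.1 CPM and the X-linked receptor gene Eda2r from 28.8 and 30.3 to 81.6 and 71.1 CPM. Btg2, an antiproliferative gene, and Rrm2b, a ribonucleotide reductase subunit, rose by 0.85 and 1.21. Cdkn1a, Eda2r, Pmaip1 and Btg2 stood still higher in untransduced EPS cells (326 to 406, 149 to 167, 108 to 121 and 64.0 to 74.3 CPM), so against these cells the same shYy1 levels are lower. Of 17 genes of the G1 phase 7 rose and 3 fell. Ccnd3 rose from 262 and 172 to 457 and 466 CPM (log2 1.09 ± 0.15, adjusted p = 6.69e-05), the inhibitor gene Cdkn2c from 2.14 and 0.827 to 9.75 and 7.06 CPM, and the kinase gene Cdk6 fell by 1.33. Of 24 mitotic genes 2 were called higher and 1 lower, all under 1 on the log2 scale.

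Of 14 ATF4 targets 4 rose and 3 fell. Ddit4, an inhibitor of mTORC1, rose from 26.4 and 26.7 to 83.0 and 77.4 CPM (log2 1.59 ± 0.13, adjusted p = 2.18e-07), and Sesn2 fell by 0.71. In the interferon-stimulated gene list, of 24 tested members 3 were called higher (12.5%) and 3 lower (12.5%), with a median log2 change of 0.08, shares under the 15.1% and 13.3% over all genes. Ddx58, the viral RNA sensor RIG-I, fell from 59.1 and 81.7 to 16.97 and 13.1 CPM (log2 -2.23 ± 0.16, adjusted p = 6.29e-08). The MHC class I gene H2-K1 fell by 1.03, while the membrane restriction genes Ifitm1 and Ifitm3 rose by 1.22 and 1.11. Untransduced EPS cells held more of Ddit4 (119 to 156 CPM), Ifitm1 (85.5 to 109 CPM) and Ifitm3 (182 to 219.6 CPM) than shYy1 cells, so these 3 were lower against them (log2 -0.75, -1.95 and -0.83). H2 and Ifitm genes have close relatives in the genome, and how reads shared between copies were counted is not stated.

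**Figure D4:**
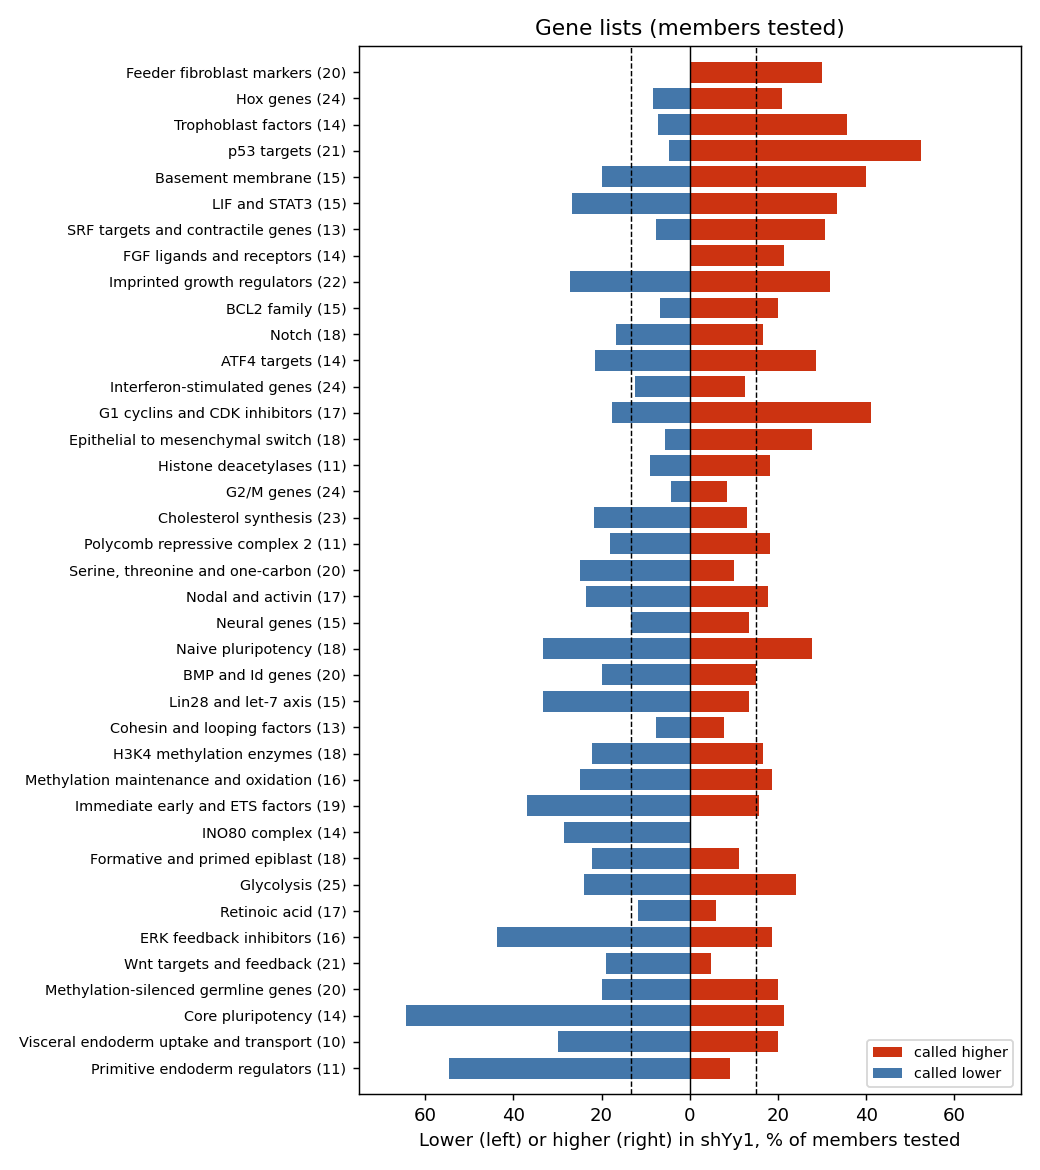
Share of the tested members of each gene list called higher (right, red) or lower (left, blue) in shYy1, for lists with at least 10 tested members other than sex-linked ones. Lists are ordered by median log2 fold change, and dashed lines mark the 15.1% higher and 13.3% lower over all genes. Core pluripotency and primitive endoderm lists reach farthest to the lower side and p53 targets farthest to the higher side.

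Genes called after depletion were set beside 2 comparisons that use none of these 4 libraries. Of the 2177 genes not on X or Y that were lower after depletion, 32.7% were higher in ES cells with the Yy1 construct and 8.13% lower, where the background over all such genes tested was 14.8% higher and 17.2% lower. Of the 2133 higher after depletion, 41.5% were lower with the construct and 8.86% higher. Seen from the other side, the 711 genes lower after depletion and higher with the construct made up 30.3% of those higher with it, and the 886 in the reverse pair made up 32.6% of those lower with it. Dnmt3l stood at 2.48 and 2.67 CPM in oeCtrl and 214 and 228 CPM in oeYy1 (log2 6.42, adjusted p = 1.95e-08). Bmp4 stood at 1.14 and 1.89 against 19.8 and 20.7 CPM (log2 3.73, adjusted p = 1.87e-07) and Enox1 at 3.49 and 6.00 against 56.1 and 59.4 CPM (log2 3.60, adjusted p = 3.94e-08). Each of the 3 was lower after depletion and higher with the construct. Pdk1 was lower after depletion and not called with the construct (log2 0.11), and Grb10 was lower in both (log2 -0.60 with the construct, adjusted p = 0.0206).

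The same was done for untransduced EPS against ES cells. Of the genes lower after depletion 27.7% were higher in EPS than in ES cells and 9.51% lower, against 13.5% (higher) and 17% (lower) of all such genes tested. Of the genes higher after depletion 41.3% were lower in EPS and 7.31% higher. Spry4, Bmp4, Lin28a and Pdk1 were higher in EPS than in ES cells (log2 3.94, 3.21, 2.47 and 2.32) and lower after depletion. Nanog and Fgf4 were lower in EPS (log2 -0.78 and -0.67) and higher after depletion. These genes are examples of the opposite pairs, and genes that went the same way in both comparisons are not named here. The sum over 20 fibroblast genes also differed between EPS and ES libraries, as given above. The Y-linked sums differed in the oe libraries too, at 111 and 132 CPM in oeCtrl and 28.2 and 27.7 CPM in oeYy1 over all Y-linked symbols. ES cells were grown in 2i and the EPS cells with hairpins in LCDM medium, so medium may differ here too. The part of feeders, Y-linked RNA or medium in these overlaps was not tested.

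**Figure D5:**
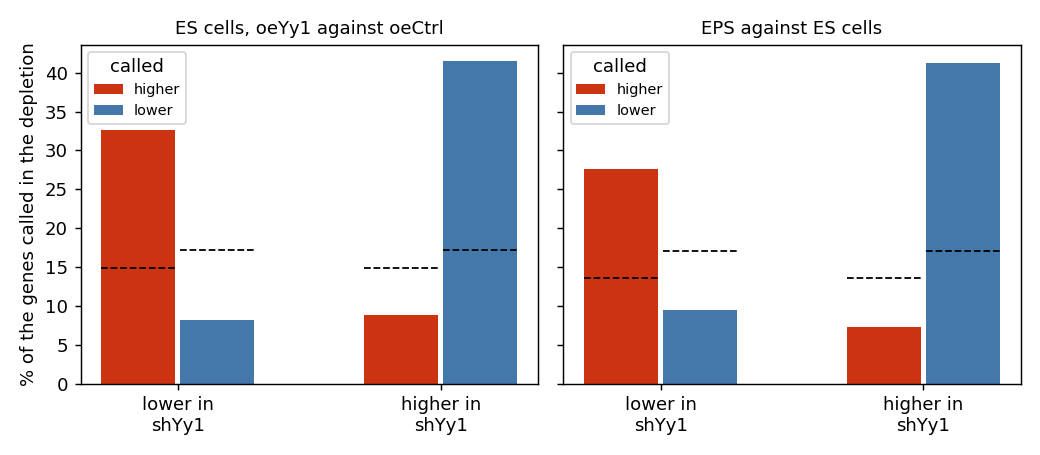
Percentage of the genes called lower or higher in shYy1 (not on X or Y) that were called higher (red) or lower (blue) in ES cells with the Yy1 construct (left) and in EPS against ES cells (right). Dashed lines mark the share over all such genes tested. Genes lower in shYy1 were higher with the construct in 32.7% against a background of 14.8%, and genes higher in shYy1 were lower with it in 41.5% against 17.2%.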

How the data were processed

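The authors deposited whole-number read counts per gene for each library, with no normalization, as the file values show. The tables cover 47517 symbols. Per the submitters' processing notes, CASAVA, Bowtie2 2.3.2, mm10 and GRCm38.p6 were used in the series, and their role for RNA is not given in the sources used here. Neither are the counter and its strand setting. Summary lines at the end of each table (no feature 6.53 to 8.62% in the 4 libraries) were left out of library sizes. Groups came from the sample titles. From the counts, edgeR 4.0.16 in R 4.3.3 (TMM factors, filterByExpr, robust quasi-likelihood F-test) was fitted to 14 undifferentiated libraries in 6 groups, which share 1 estimate of spread. SE is the absolute log2 change divided by the root of F. The fit was also run on simulated data, and the outcome is not given here or read as support. DESeq2 1.42.0 was an alternative. The 22 tables include 8 of day 6 cells, not analysed here. Symbols were matched to the GRCm38.p6 RefSeq annotation (94.7% of genes tested). Of 749 symbols in 48 gene lists 745 were in the tables and 691 passed the filter. Members and lists were chosen with earlier results of these data known. Named genes are Yy1, the 8 largest rises and falls among called autosomal genes (at least 5 CPM on average, groups apart, no unnamed or pseudogenes), up to 4 called members of smallest p per list, and 17 fixed genes. The text gives most of these (a few genes are not reported here) and, to account for a list, other members by value.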

Additional observations from a re-analysis of the deposited data

How the results depend on the processing

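With untransduced EPS cells in place of shCtrl, 10148 genes were called, 5276 higher and 4872 lower, 2917 and 2525 of them at least 2-fold. Outside the X and Y 4920 were higher and 4786 lower, and 86 X-linked genes were lower. Of 186 genes given in the text, 52 turned direction under that control, and the cause was not tested. This counts the sign of the log2 change, whether or not the gene was called. The log2 changes turned positive were Col6a5 2.13, Robo4 4.31, Spred2 0.31, Etv4 1.30, Bmpr1a 0.30, Smad1 1.68, Smad5 0.17, Cdx1 5.45, Rarg 1.36, Jag2 0.0079, Dppa2 1.60, Gbx2 0.54, Klf5 0.82, Dicer1 0.33, Dnmt3a 1.39, Zfp57 0.12, Mov10l1 0.56, Ino80e 0.51, Setd1b 0.50, Gata6 1.76, Cubn 2.48, Hoxa7 0.64, Idi1 0.30. Those turned negative were Dusp1 -1.33, Dusp8 -3.61, Jun -1.22, Egr1 -1.49, Id2 -2.51, Dppa5a -0.66, Tbx3 -0.32, Hmga2 -0.11, Dppa3 -0.66, Dio3 -2.44, Gata2 -0.15, Gata3 -0.24, Nes -0.55, Col1a1 -4.15, Cyr61 -1.83, Ldhb -2.05, Slc2a3 -0.092, Pfkfb3 -0.29, Cdkn1a -0.81, Pmaip1 -0.94, Eda2r -1.02, Btg2 -1.38, Ddit4 -0.75, Ifitm1 -1.95, Ifitm3 -0.83, Cldn4 -2.87, Cldn7 -1.75, Epcam -0.88, Krt7 -1.94. Another 22 kept their direction but not their call: Kdm5d, Nlrc4, Mcc, Etv1, Lefty2, Tfcp2l1, Sox2, Utf1, Zfp281, Sall4, Drosha, Dnmt3b, Trim28, Peg3, Grb10, Mest, Peg10, Eomes, Evx1, Sparc, Col18a1 and Bak1. A further 6 gained a call under that control, among them Pou5f1, Fgfr1 and Bmpr2 (log2 -1.05, 0.46 and 1.36). Leaving out 1 library at a time, the fit assumed that the lone sample varies like the other groups. Calls then ranged from 2571 to 4853, those higher from 1432 to 2613 and those lower from 1089 to 2240. At least 2-fold, the counts ranged from 809 to 1632 higher and from 452 to 731 lower. Outside the X and Y they were 1129 to 2288 higher and 1085 to 2220 lower. X-linked genes ranged from 277 to 320 higher and from 4 to 20 lower, X- and Y-linked calls together from 286 to 345, the X median from 0.78 to 0.85 and Yy1 from -1.04 to -0.95. Over the same fits Xist ranged from -1.25 (without shCtrl replicate 2) to 1.14 (without shCtrl replicate 1), Esrrb from -0.095 to 0.022, Tbx3 from -0.0074 to 0.98 and Dnmt1 from -0.032 (without shCtrl replicate 1) to 0.17 (without shCtrl replicate 2), with -0.00021 without shYy1 replicate 1. None of these 4 genes was called with all libraries, and Tbx3 was called higher without shCtrl replicate 1 and with no count filter. Fitting only the 4 libraries left 3590 calls, 8 of them X-linked and lower. Yy1 kept its direction and call under every alternative run. RLE factors gave 4667 calls, DESeq2 4741 and no count filter 4858. Replicate numbers are shared between the groups, but deviations of same-numbered libraries correlated at 0.057 over 2 pairs and the labels give no pairing. With a replicate block 6157 genes were called, and 180 of the 186 genes kept their side of the threshold, while 4 gained a call (Rps6ka6, Smad5, Pou5f1 and Uhrf1) and 2 lost it (Lef1 and Peg10). Depth limits low genes: 3 counts, the floor for a gene at 0, amount to 0.176 to 0.219 CPM before normalization in these 4 libraries.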

Other observations

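Some further gene groups were described in neither direction above. Of 18 genes of the epithelial to mesenchymal switch 5 were called higher and 1 lower. The tight junction gene Cldn3 rose from 4.93 and 3.78 to 17.4 and 20.3 CPM (log2 2.12 ± 0.26, adjusted p = 1.92e-05) and Cldn4 from 40.4 and 29.3 to 75.2 and 66.4 CPM (log2 1.02 ± 0.19, adjusted p = 0.000785), while untransduced EPS cells held 394 to 587 CPM of Cldn4. Of 15 genes of the BCL2 family 3 were higher and 1 lower, the latter being Bid, which links death receptors to mitochondria, from 97.4 and 119.8 to 66.3 and 60.6 CPM (log2 -0.78 ± 0.12, adjusted p = 0.00019). Of 6 tested genes of the 2-cell-like state, several of them with near-identical copies, none was called higher and Eif1a was called lower (log2 -0.38, adjusted p = 0.268 without shCtrl replicate 2, 0.237 without shYy1 replicate 1 and 0.0537 without shYy1 replicate 2). Of 4 simple epithelial keratins Krt7 was higher, at 0.416 and 0.0591 against 1.70 and 2.52 CPM.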
